A study of Mus musculus with 6 samples.

Results

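The TGF-beta and BMP signalling genes are a set of 39 genes that encode the ligands, receptors, Smad proteins and inhibitors of one family of growth factor pathways. Their signals were read on microarrays of cells sorted as mouse LT-HSC, the long-term haematopoietic stem cells of the marrow, which can rebuild all blood lineages. Markers of mature blood cells also gave signals on these arrays, so the members' values need not come from stem cells alone. The members were fixed by gene name. Each was read from the probe set whose annotation gave that symbol alone, or from the brightest such probe set where there were several. All 39 had a probe set, among 22180 genes that had one. The data held 3 arrays of control LT-HSC and 3 of LT-HSC expressing NPMc+, a mutant of nucleophosmin found in the cytoplasm. All cells were sorted from bone marrow of C57/BL6 mice 4 months after a bone marrow transplant, and each array held RNA of a pool of animals. The sources used here do not give the promoter or vector behind NPMc+, the age of the animals, the number per pool or the sorting markers. Replicates 1, 2 and 3 of the groups formed 3 same-numbered pairs, and all differences are NPMc+ minus control within those pairs, in log2 units.

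In this pathway a dimeric ligand binds a type II receptor, which activates a type I receptor, and that kinase phosphorylates Smad proteins. TGF-beta and activins act mainly through Smad2 and Smad3, and BMPs mainly through Smad1, Smad5 and Smad9. Both branches use Smad4 as the common partner, and both induce inhibitors such as Smad7 that switch the receptors off again. In bone marrow TGF-beta is known as a brake on the division of stem cells, and it is made as a latent complex that has to be activated locally.

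The clearest differences among the members were higher signals of Smad5 and Smad3 in NPMc+ cells. Tgfb1, Tgfbr2 and the inhibitor Smad7 were also higher, and Thbs1 was lower. The remaining Smad genes, most receptors and most ligands did not reach the same threshold. Of the members, 38 passed the filter on dim genes and were tested. In a limma fit with the pair as a block, an unadjusted p under 0.05 was reached by 5 members with a higher and 1 with a lower signal. That is 6 of 38 members, beside 8.97% of the 16635 genes tested, of which 5.95% were higher and 3.02% lower. With the Benjamini-Hochberg adjustment over all genes, 0 members and 0 genes passed 0.05 in limma, and the lowest adjusted p of a member was 0.34. A difference of at least 1.5-fold was seen in 4 members (Thbs1, Tgfbr2, Smad3 and Smad5), beside 7.59% of all genes tested. Of the 6 members, those still at the unadjusted threshold were Smad3 and Smad5 without pair 1, Tgfb1, Smad3, Smad5 and Smad7 without pair 2, and Tgfbr2, Smad3, Smad5 and Thbs1 without pair 3. Without pair 1 Smad1 was added as higher and Lrrc32 and Zfyve9 as lower, and without pair 2 Acvr1 was added as higher. By limma without the block, 2 members passed the adjusted threshold, Smad5 and Tgfb1, beside 4.98% of genes. That fit counts more residual degrees of freedom than the values hold and takes too small a spread. Its p-values are therefore too small and back no call. Differences were positive in 23 of 38 members, beside 54.9% of all genes, and their median was 0.06, beside 0.03 for all genes tested. An exact sign-flip test over 3 pairs cannot give a two-sided p below 0.25, so no such test was made for single genes.

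**Figure D1:**
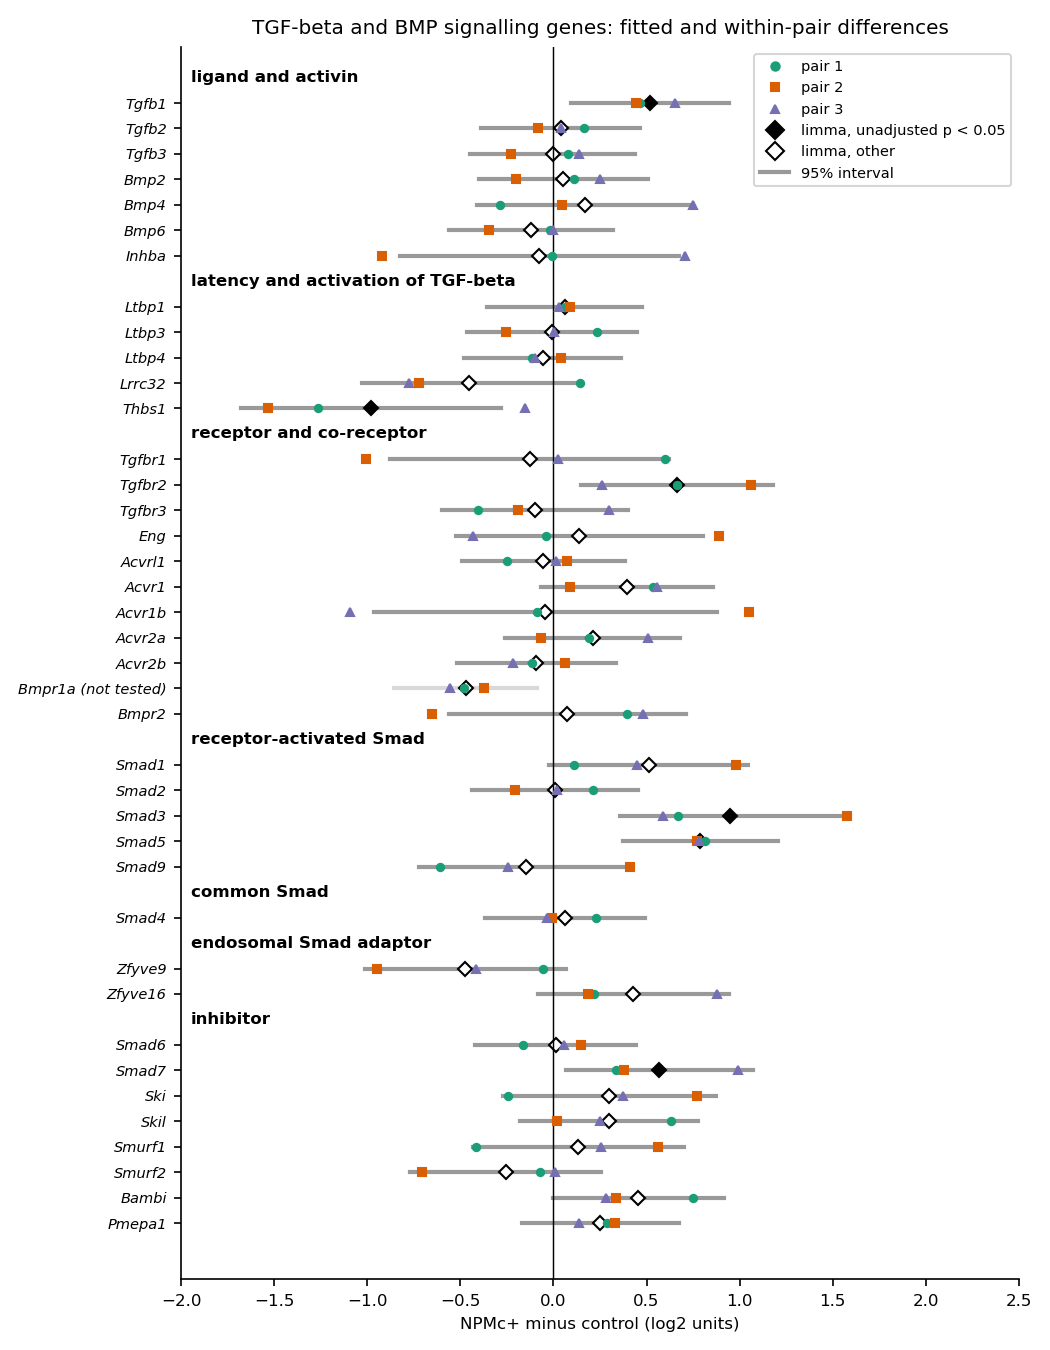
Differences of all 39 members, NPMc+ minus control in log2 units, grouped by role. Coloured symbols are the 3 pairs, diamonds the limma estimates and bars the 95% intervals. Filled diamonds mark the 6 members at an unadjusted p under 0.05, and Bmpr1a lay below the filter and was not tested. The pairs of Smad5 lie on top of each other, whereas those of Acvr1b and Tgfbr1 lie on both sides of 0.

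The deposited values carry a structure that bears on every result below. Control and NPMc+ averaged to the same value in each of the 3 pairs, so that an array above its group mean has a partner equally far below. The SD is therefore equal in both groups, and the groups fail to overlap exactly when the 3 pair differences share a sign. Separate groups, where named below, add nothing to those signs. The group SDs printed below leave out any variation that the 2 arrays of a pair share. They are smaller than the SD of the pair differences (0.011 against 0.022 for Smad5) and do not measure the full spread between pools. Of the 38 members tested, 14 had such separate groups, beside 30.2% of all genes tested. NPMc+ was the higher group in 12 (17.4% of all genes) and the lower in 2 (12.8% of all genes).

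Sequence upstream of the transcription start is shown for 4 of the 5 higher members, since the results turn on their transcripts. The windows are the 250 bases before the start, from RefSeq sequences of the GRCm38.p6 build, written 5′ to 3′ along the gene's strand. For Smad5, which has 3 listed starts, the most upstream is shown. Capitals mark matches, on either strand, to the Smad-binding motif CAGAC, to the GC-rich Smad motif written GGCGCC, to the AP-1 motif written TGANTCA, to the GC box written GGGCGG, to the CCAAT box and to the Smad palindrome written GTCTAGAC. Matches to the GC box and to the GC-rich Smad motif can share letters.
Tgfb1, chr7:25686752-25687001, plus strand: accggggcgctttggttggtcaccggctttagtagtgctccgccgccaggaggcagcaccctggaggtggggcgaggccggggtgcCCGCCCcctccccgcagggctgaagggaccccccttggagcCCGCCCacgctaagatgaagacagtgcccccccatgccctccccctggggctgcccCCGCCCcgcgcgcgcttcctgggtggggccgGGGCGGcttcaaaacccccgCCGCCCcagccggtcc
Tgfbr2, chr9:116175364-116175613, minus strand: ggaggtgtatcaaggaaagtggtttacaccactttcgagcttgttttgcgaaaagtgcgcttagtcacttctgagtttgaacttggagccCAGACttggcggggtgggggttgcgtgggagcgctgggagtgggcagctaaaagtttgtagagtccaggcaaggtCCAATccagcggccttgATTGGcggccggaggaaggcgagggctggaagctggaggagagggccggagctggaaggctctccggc
Smad3, chr9:63757995-63758244, minus strand: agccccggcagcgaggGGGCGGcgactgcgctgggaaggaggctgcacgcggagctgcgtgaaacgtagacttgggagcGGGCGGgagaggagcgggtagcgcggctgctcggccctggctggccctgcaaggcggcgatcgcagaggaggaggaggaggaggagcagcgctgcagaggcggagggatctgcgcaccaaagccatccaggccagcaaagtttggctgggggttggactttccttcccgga
Smad5, chr13:56702760-56703009, plus strand: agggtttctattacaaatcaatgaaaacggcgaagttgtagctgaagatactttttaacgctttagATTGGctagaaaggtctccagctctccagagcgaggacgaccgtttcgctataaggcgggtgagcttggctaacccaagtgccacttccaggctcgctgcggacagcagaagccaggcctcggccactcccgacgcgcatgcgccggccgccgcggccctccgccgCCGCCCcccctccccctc

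The windows differ in which of these letters they hold. Tgfb1 holds 5 GC boxes, Smad3 holds 2 and Smad5 holds 1, and 32.7% of 32851 windows of this length hold the GC box. Tgfbr2 holds 2 CCAAT boxes and Smad5 holds 1, against 33.9% of all windows with any. Of the windows shown, that of Tgfbr2 holds 1 CAGAC, a motif found in 42.2% of all windows. The GC-rich Smad motif, the AP-1 motif and the Smad palindrome, held by 9.59%, 6.75% and 0.167% of all windows, are not in the 4 windows shown. The other listed Smad5 starts hold other letters: the second window has 1 match to the GC-rich Smad motif, 1 GC box and 1 CCAAT box, and the third has 1 CAGAC and 7 GC boxes. The matches are descriptions of letters and were not measured as binding sites. All 4 windows are richer in G and C (58.4% to 75.2%) than the median window (52.4%). This is not particular to them: the windows of Ski and Acvr1 reach 87.6% and 85.6%, whereas those of Zfyve9 and Inhba hold 37.2% and 43.2%. Of all 33 member windows, 23 hold the GC box. Of the 39 members, 27 had a promoter entry.

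Among the ligands, only Tgfb1 reached an unadjusted p under 0.05, and its 3 pair differences were all positive. Tgfb1 encodes the main TGF-beta of blood cells. Its control arrays (probe set 17475342) read 8.43, 8.44 and 8.34 log2 units and its NPMc+ arrays 8.90, 8.89 and 8.99. Every NPMc+ array was above every control array. The group means were 8.41 ± 0.058 and 8.92 ± 0.058 (SD, n = 3 arrays each). The limma difference was 0.52 ± 0.18 (SE), a 1.43-fold higher signal (unadjusted p = 0.0238, adjusted p = 0.485). By limma without the block, which gives p-values that are too small for these values, the adjusted p was 0.0239. Without pair 1 the unadjusted limma p was 0.0763, and without pair 3 it was 0.107.

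The other 6 ligand genes were dim and showed little difference. Their group means lay between 3.03 (Bmp4, control) and 3.86 (Inhba, control), below the array medians of 3.90 to 3.99. So near the floor, a small difference says little about these genes. Tgfb2 and Tgfb3, the other TGF-beta isoforms, differed by 0.04 and -0.0036, with 95% intervals of -0.39 to 0.47 and -0.45 to 0.44. The BMP genes Bmp2, Bmp4 and Bmp6 differed by 0.05, 0.17 and -0.12. Inhba, which encodes the subunit of activin A, differed by -0.08, and its pairs ranged from -0.92 in pair 2 to 0.70 in pair 3. Bmp4 was uneven in the same way, with 0.75 in pair 3 and -0.29 in pair 1. None of these 6 had the same sign in all pairs.

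Of the 5 genes that hold TGF-beta latent or release it, 4 had a negative and 1 a positive difference, with a median of -0.06. Thbs1, which encodes thrombospondin 1, a matrix and platelet protein able to activate latent TGF-beta, was the 1 member lower at an unadjusted p under 0.05. Its control arrays (probe set 17374488) read 7.08, 7.22 and 6.53 and its NPMc+ arrays 5.82, 5.69 and 6.38. The groups did not overlap, but pair 3 lay close together, with pair differences of -1.26, -1.53 and -0.15. The group means were 6.94 ± 0.37 and 5.96 ± 0.37 (SD, n = 3 arrays each). The limma difference was -0.98 ± 0.29 (SE), a 1.98-fold lower signal (unadjusted p = 0.0131, adjusted p = 0.452). Without pair 3 the difference was -1.40 and without pair 2 it was -0.71, with an unadjusted limma p of 0.0686. Without pair 1 it was -0.84, with an unadjusted limma p of 0.0743.

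The pair differences of Thbs1 were smallest in pair 3, as were the pair medians of a list of mature myeloid markers. Of 12 neutrophil and monocyte markers, 12 had negative differences and 6 were lower at an unadjusted p under 0.05 in limma, beside 3.02% of all genes. Their pair medians were -1.33, -1.03 and -0.15, and the mean over the list lay between 9.29 and 9.83 on control arrays and between 8.50 and 9.04 on NPMc+ arrays. Single markers varied: Ly6g differed by -3.51, -2.48 and -0.42, but Ly86 by -0.96, -0.46 and -1.16 and Ms4a6c by 0.27, 0.14 and -0.70. Megakaryocyte and platelet markers went the other way from Thbs1, with pair medians of 0.95, 0.99 and 0.91. In bulk samples, fewer cells of a type and less RNA per cell cannot be told apart, and the part of such cells in the Thbs1 value was not tested. Pairs 1 and 2, where Thbs1 differed most, also differed in the female transcript Xist, by -5.44 and -5.39, against 0.48 in pair 3. Averaged over 3 Y-linked genes, the differences were 4.55, 0.86 and -0.37 for pairs 1 to 3. The part of the sex of the pooled animals, in Thbs1 or in any other member, was not tested.

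No latent binding protein gene reached the threshold. Ltbp1, Ltbp3 and Ltbp4, which tether the latent complex to matrix, differed by 0.06, -0.0076 and -0.06, and the largest bound of their 95% intervals was -0.48. Ltbp1 was dim, with means of 3.25 in control and 3.31 in NPMc+. Lrrc32 encodes GARP, which holds latent TGF-beta on the cell surface. It differed by -0.45 (95% interval -1.03 to 0.12), with pairs of 0.14, -0.72 and -0.78, so that its groups overlapped.

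Of 10 receptor genes tested, Tgfbr2 was the 1 that reached an unadjusted p under 0.05. Tgfbr2 encodes the type II receptor that binds TGF-beta. Its control arrays (probe set 17531987) read 4.79, 4.60 and 5.00 and its NPMc+ arrays 5.46, 5.66 and 5.26. All NPMc+ arrays were higher, and pair 2 differed most. The group means were 4.80 ± 0.20 and 5.46 ± 0.20 (SD, n = 3 arrays each). The limma difference was 0.66 ± 0.22 (SE), a 1.58-fold higher signal (unadjusted p = 0.0195, adjusted p = 0.471). The unadjusted limma p was 0.0739 without pair 1, and 0.0939 without pair 2, where the difference was 0.46.

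**Figure D2:**
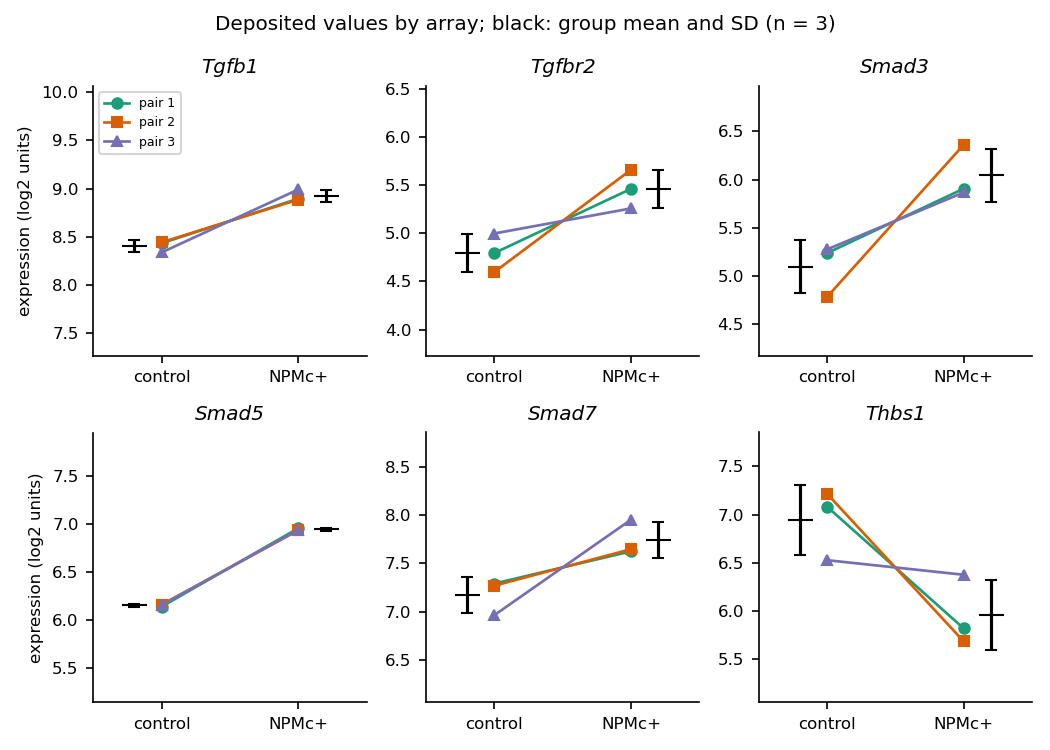
Deposited log2 values on each array for the 6 members at an unadjusted p under 0.05. Lines join same-numbered control and NPMc+ arrays, black bars show the group mean and SD (n = 3), and every panel spans the same range of log2 units. The SD leaves out variation shared within a pair and is not the full spread between pools. The 3 lines of Smad5 coincide, Smad3 is steepest in pair 2, and Thbs1 is almost flat in pair 3.

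The partner receptors of Tgfbr2 did not reach the threshold, and whether they differ from Tgfbr2 was not tested. Tgfbr1, the type I receptor that signals with it, differed by -0.13 ± 0.31 (SE). Its pairs read 0.60, -1.01 and 0.03, so that pairs 1 and 2 went opposite ways. The co-receptors Tgfbr3 (betaglycan) and Eng (endoglin, also a surface protein of stem cells and endothelium) differed by -0.10 and 0.14. Eng was higher by 0.89 in pair 2 and lower by 0.43 in pair 3. Acvrl1, the type I receptor ALK1 of endothelium, differed by -0.05.

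Receptors for activins and BMPs spread around 0. Acvr1, the type I receptor ALK2 that carries BMP signals, was positive in all pairs at 0.54, 0.09 and 0.56, with a limma difference of 0.39 (95% interval -0.07 to 0.86, unadjusted p = 0.0825). Acvr1b, the type I activin receptor ALK4, had the widest spread of any member, with pairs of -0.09, 1.05 and -1.10. The type II receptors Acvr2a, Acvr2b and Bmpr2 differed by 0.21, -0.09 and 0.07. Bmpr1a, a type I BMP receptor, had a mean below the filter and was not tested. Its control arrays read 3.18, 3.13 and 3.22 and its NPMc+ arrays 2.70, 2.75 and 2.66, all NPMc+ values being lower.

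The receptor-activated Smads held the 2 members with the smallest p. Smad5, a transducer of BMP signals, read 6.14, 6.16 and 6.16 in control (probe set 17287848) and 6.96, 6.93 and 6.94 in NPMc+. The pair differences of 0.81, 0.77 and 0.78 were nearly equal. The group means were 6.15 ± 0.011 and 6.94 ± 0.011 (SD, n = 3 arrays each). The limma difference was 0.79 ± 0.17 (SE), a 1.73-fold higher signal (95% interval 0.37 to 1.20, unadjusted p = 0.00316, adjusted p = 0.34). limma draws each gene's spread towards a value common to all genes, so this SE is larger than the spread of the 3 pairs alone. Smad5 ranked 152 by p among the 16635 genes tested.

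Smad3, a transducer of TGF-beta and activin signals, had the largest positive difference of the members. It read 5.24, 4.78 and 5.28 in control (probe set 17528111) and 5.91, 6.36 and 5.87 in NPMc+. The groups did not overlap, and pair 2 stood apart with a difference of 1.58 against 0.67 and 0.59. The group means were 5.10 ± 0.27 and 6.04 ± 0.27 (SD, n = 3 arrays each). The limma difference was 0.95 ± 0.25 (SE), a 1.93-fold higher signal (95% interval 0.35 to 1.54, unadjusted p = 0.00729, adjusted p = 0.41). Smad3 and Smad5 kept an unadjusted limma p under 0.05 in all 9 alternatives run. Without pair 2 the Smad3 difference was 0.63 with an unadjusted limma p of 0.0279, 1.5 times smaller on the log2 scale.

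The close relatives of Smad3 and Smad5 gave other values on the same arrays. Smad2, the partner of Smad3 downstream of the TGF-beta receptors, read 8.12, 8.33 and 8.21 in control and 8.33, 8.12 and 8.23 in NPMc+. The groups overlapped, and the difference of 0.0078 had a 95% interval of -0.44 to 0.45. Smad1, which acts beside Smad5, read 5.44, 5.00 and 5.27 in control and 5.55, 5.98 and 5.72 in NPMc+. All its NPMc+ arrays were higher, by 0.11, 0.98 and 0.45, and the limma difference of 0.51 had an unadjusted p of 0.058. Smad9, the remaining BMP Smad, read 3.52, 3.01 and 3.34 in control and 2.91, 3.42 and 3.09 in NPMc+, with a difference of -0.15 and overlapping groups. Its values lay near the filter of 3.01, where a small difference says little. Whether these relatives differ from each other in their response was not tested.

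Smad4, the common partner of both branches, showed no separation. It read 7.01, 7.13 and 7.14 in control and 7.24, 7.12 and 7.10 in NPMc+, with overlapping groups. Its difference was 0.06 (95% interval -0.37 to 0.49). Of the endosomal adaptors that bring Smads to receptors, Zfyve9 (SARA) was negative in all pairs at -0.06, -0.95 and -0.42. Zfyve16 (endofin) was positive in all pairs at 0.22, 0.18 and 0.88. Their limma differences were -0.47 and 0.43, with unadjusted p = 0.0761 and 0.0882. The groups of each gene were separate, in opposite directions.

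Of the 8 inhibitors, Smad7 was the 1 that reached an unadjusted p under 0.05. The estimate was positive in 7 of 8, beside 54.9% of all genes. By pair 4, 7 and 8 of the 8 were positive, beside 8378, 9065 and 8818 of all 16635 genes tested. Smad7, which is induced by TGF-beta and blocks its receptor, read 7.29, 7.27 and 6.96 in control (probe set 17351862) and 7.63, 7.65 and 7.95 in NPMc+. The groups were separate, and pair 3 gave the largest difference, 0.99 against 0.33 and 0.38. The group means were 7.17 ± 0.18 and 7.74 ± 0.18 (SD, n = 3 arrays each). The limma difference was 0.57 ± 0.21 (SE), a 1.48-fold higher signal (unadjusted p = 0.032, adjusted p = 0.514). Without pair 3 it was 0.36, with an unadjusted limma p of 0.19. Without pair 1 the difference was 0.68 and the p 0.0534.

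Smad6, which inhibits mainly the BMP branch, read 3.24, 3.08 and 3.13 in control and 3.07, 3.23 and 3.18 in NPMc+, with overlapping groups. Its difference was 0.01 (95% interval -0.42 to 0.45), and whether it differs from Smad7 was not tested. Smad6 also lay near the filter of 3.01, where a small difference says little. Bambi, a decoy receptor without a kinase, was higher in all pairs, by 0.75, 0.33 and 0.28 (limma difference 0.46, unadjusted p = 0.0518). Pmepa1, a TGF-beta target that restrains Smad signalling, was also higher in all pairs, by 0.29, 0.33 and 0.14 (limma difference 0.25, unadjusted p = 0.199).

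The nuclear co-repressors and ubiquitin ligases were less even. Skil (SnoN), which represses Smad targets and is itself a TGF-beta target, was positive in all pairs at 0.63, 0.02 and 0.25. Its relative Ski was negative in pair 1 at -0.25 and positive in the others at 0.77 and 0.37. Both had a limma difference of 0.30. Smurf1 and Smurf2, ligases that mark receptors and Smads for degradation, differed by 0.13 and -0.26, with both signs among the pairs of each.

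The 3 pairs did not contribute alike. In pair 2, 22 of 38 members were positive, as in pair 1, against 28 in pair 3. Of the 16635 genes tested, 8378, 9065 and 8818 were positive in pairs 1, 2 and 3. The pair medians were 0.11, 0.05 and 0.14 for members, beside 0.003, 0.05 and 0.03 for all genes tested. Several members had an extreme in pair 2. Tgfbr1, Bmpr2, Smurf2, Inhba and Zfyve9 had their lowest difference there, from -0.65 to -1.01, as had Thbs1 at -1.53. Smad1, Smad3, Tgfbr2, Acvr1b and Eng had their highest there, from 0.89 to 1.58. The median SD of the 3 pair differences was 0.334 for members and 0.327 for all genes tested.

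Other genes of the pathway were taken from a list of 84 names, of which 77 had a probe set and 68 were tested. At an unadjusted p under 0.05 in limma, 6 were higher and 2 lower, which is 11.8% of the list beside 8.97% of all genes. Their median difference was 0.01, beside 0.03 for all genes tested. All 8 had adjusted p-values of 0.296 or more in limma. Without the block, where p-values are too small, 6 of them passed the adjusted threshold. Among 9 further ligands, 9 further receptors and activators and 8 secreted antagonists, 0 reached an unadjusted p under 0.05 in limma.

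Intracellular regulators supplied 4 of the higher genes, of 25 tested, beside 5.95% of all genes. Runx3, a transcription factor that binds Smads, was 1.67-fold higher, with pairs of 0.42, 1.23 and 0.57. Fkbp1a, which encodes FKBP12, a protein that keeps type I receptors silent, was 1.55-fold higher, with pairs of 0.71, 0.16 and 1.02. Tab1, an activator of the TAK1 kinase, was higher by 0.58 with even pairs of 0.54, 0.65 and 0.55. Nedd4l, a ubiquitin ligase for activated Smad2 and Smad3, was 1.49-fold higher with pairs of 0.51, 0.63 and 0.59. Without pair 1 Fkbp1a, Tab1 and Nedd4l no longer reached the unadjusted threshold, without pair 3 Fkbp1a and Nedd4l, and without pair 2 Runx3.

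Transcriptional targets differed both ways, 2 higher and 2 lower of 17 tested, beside 5.95% higher and 3.02% lower of all genes. Id2, a target of BMP signals that blocks E proteins, averaged 7.10 in control and 6.02 in NPMc+, with pairs of -0.89, -1.39 and -0.96. Its groups did not overlap, and it was 2.12-fold lower (limma difference -1.08 ± 0.19, SE, unadjusted p = 0.00107, adjusted p = 0.296). Id1 and Id3, the BMP targets most often used as readouts, differed by -0.15 and 0.05, with pairs of both signs. Tsc22d1, induced by TGF-beta, was 1.66-fold higher, but its second probe set differed by 0.05, and the mean of both gave an unadjusted limma p of 0.0972.

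The cell cycle inhibitors among the targets also differed in sign. Cdkn1b and Cdkn1c differed by -0.04 and -0.33, had pairs of both signs and did not reach the threshold. Cdkn1a, which encodes p21, was 1.59-fold higher with pairs of 0.53, 0.73 and 0.75 (in limma, unadjusted p = 0.00803, adjusted p = 0.41). Cdkn2b, which encodes p15, read 5.02, 5.05 and 5.01 in control and 4.55, 4.52 and 4.57 in NPMc+. Its groups were separate, and it was 1.39-fold lower (in limma, unadjusted p = 0.0303, adjusted p = 0.512). Without any 1 pair the p of Cdkn2b was 0.0799 to 0.105, and with an intensity trend it was 0.0544. Tgfbi, a matrix protein strongly expressed by monocytes, differed by -0.59, with pairs of -0.93, -1.08 and 0.23.

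**Figure D3:**
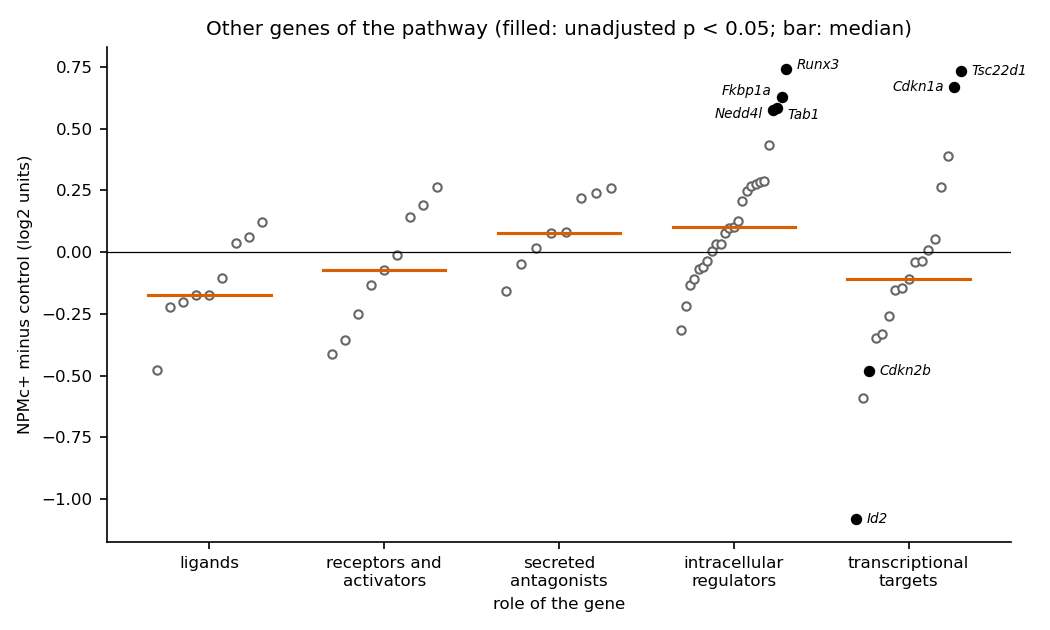
Limma differences, NPMc+ minus control in log2 units, of the 68 other pathway genes tested, by role. Filled points are the 8 genes at an unadjusted p under 0.05, each with its name, and orange bars are medians. All named genes are intracellular regulators or transcriptional targets.

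Marker lists of other cells were read beside these results. Of 11 LT-HSC markers measured, 6 were higher at an unadjusted p under 0.05 in limma, beside 5.95% of all genes. The list had pair medians of 0.34, 0.57 and 0.81. Its mean lay between 6.05 and 6.22 on control arrays and between 6.58 and 6.75 on NPMc+ arrays. The neutrophil and monocyte list was brighter on the same arrays, between 9.29 and 9.83 in control and between 8.50 and 9.04 in NPMc+. Signals of different genes do not give shares of cells. The 6 higher LT-HSC markers were Mecom, Kit, Gata2, Meis1, Angpt1 and Ctnnal1. The others were not called: Hlf and Slamf1 differed by 0.50 and 0.40, and Procr, Tek and Fgd5 by 0.08, 0.03 and -0.20. Kit, a receptor of stem and progenitor cells, read 8.94 in control and 9.37 in NPMc+ on average, and Procr 5.33 and 5.41. Of 8 megakaryocyte and platelet markers, 7 were higher, with pair medians of 0.95, 0.99 and 0.91. Their list mean lay between 5.40 and 5.59 on control arrays and between 6.37 and 6.56 on NPMc+ arrays. The higher signals of Tgfb1, Tgfbr2, Smad3, Smad5 and Smad7 thus stood beside higher signals of some LT-HSC markers and most megakaryocyte markers. The part of these cells in those values was not tested.

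Most B cell and erythroid markers went the other way, and T and NK cell markers went both ways. Of 9 B cell markers 7 were lower, and of 6 erythroid markers 5. Cd79b and Pax5, the B cell markers not called, differed by -0.34 and -0.03. Of 9 T and NK cell markers 3 were lower, Cd3d, Cd3e and Cd2, at -1.48, -1.33 and -1.49. Another 2 were higher, Nkg7 and Gzmb, at 0.48 and 0.84. Of all genes, 3.02% were lower and 5.95% higher at the same threshold. B cell list means lay between 5.97 and 6.08 on control arrays and between 4.66 and 4.77 on NPMc+ arrays. Of 7 endothelial markers, 1 was higher (Pecam1, difference 0.75) and 1 lower (Emcn, -0.77). Not called were Kdr, Esam and Tie1 at 0.37, 0.26 and 0.24, and Plvap and the endothelial cadherin Cdh5 at -0.07 and -0.02. Of 5 stromal markers tested, 2 were higher, Pdgfrb by 1.12 and Bgn by 0.76. Cxcl12, Col1a2 and Col1a1 were not called, at 0.18, -0.11 and -0.19. The part of these cells in the members' values was not tested.

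**Figure D4:**
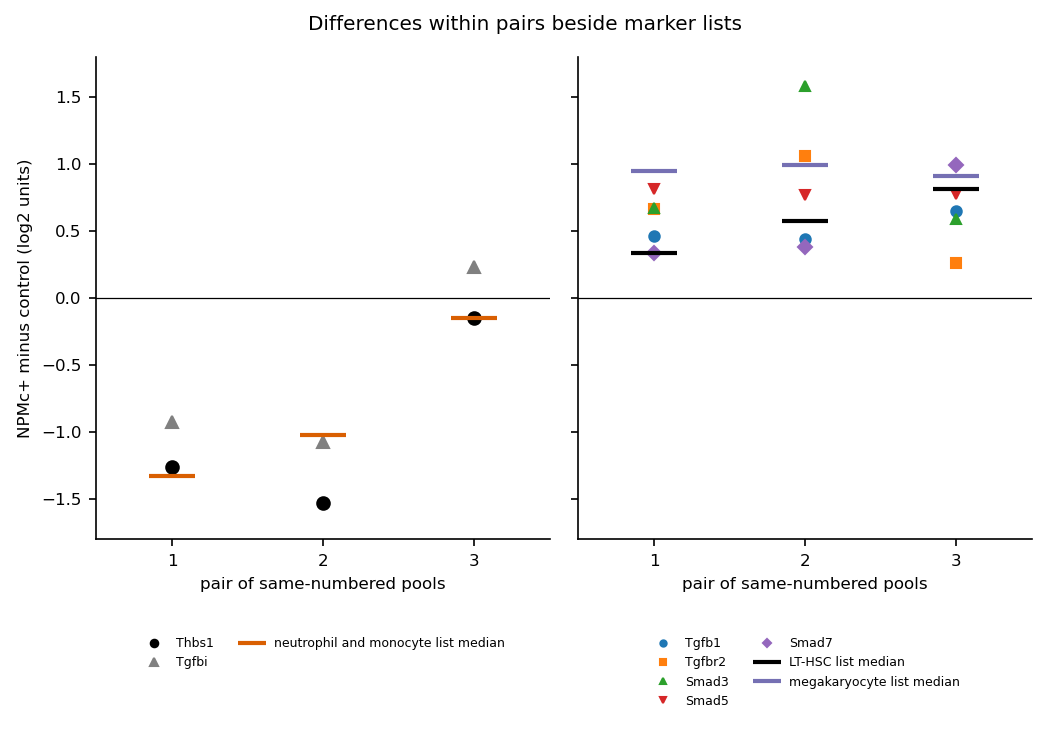
Differences within each of the 3 pairs, NPMc+ minus control in log2 units. The left panel sets Thbs1 and Tgfbi beside the median of 12 neutrophil and monocyte markers, and all 3 lie nearest to 0 in pair 3. Single markers of that list varied, and Ly86 and Ms4a6c were lowest in pair 3, at -1.16 and -0.70. The right panel sets the 5 higher members beside the medians of 11 LT-HSC and 8 megakaryocyte and platelet markers, and all of these are positive in every pair.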

How the data were processed

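Values are log2 signals of 41345 probe sets on 6 arrays, as deposited by the authors. The submitters' processing notes name RMA, which corrects background, normalizes arrays and summarises probes. Neither its version nor any later step is stated in the sources. Per the labels, about 5 ng of RNA went into amplification. Medians per array ran from 3.90 to 3.99, and the number of arrays limits the precision.

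Groups and replicate numbers came from sample titles. Same-numbered control and NPMc+ arrays had means that agreed over the 3 pairs within 0.001 log2 units in 100% of probe sets, and their deviations from the group means had a correlation of -1. With the replicate effect so absent, the replicate number was fitted as a block (2 residual and 4.54 prior degrees of freedom).

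Probe sets with 1 symbol (23521) gave 22180 genes, the brightest standing for each; 1814 had several symbols and 16010 none. The filter dropped genes whose mean lay under the 25th percentile (3.01) and left 16635. Tests used limma 3.58.1 (lmFit, eBayes, two-sided) in R 4.3.3, with Benjamini-Hochberg adjustment over all genes tested, and were tested on simulated data.

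Members, lists and tests were chosen with earlier results of these data known, and the GC and CCAAT motifs after the windows were seen. Every member is named. Values by array are given for the Smad genes and for those at an unadjusted p under 0.05 or at least 1.5-fold different. Bmpr1a, Id1, Id3, Cdkn1b, Cdkn1c and Tgfbi values were picked after they were seen. If pools shared animals, p-values measure only the spread between these pools.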

Additional observations from a re-analysis of the deposited data

How the results depend on the processing

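The gene counts by p, the members' median, the members' differences and those of the 8 other pathway genes at the unadjusted threshold were recomputed without the replicate block, after quantile normalization, without the filter on dim genes, with genes at or above the 50th percentile, with the mean of all probe sets of a gene, with an intensity trend in eBayes, and without each pair in turn. Bmpr1a could be tested only without the filter. The marker lists, the counts by fold, sign or overlap, and Id1, Id3, Cdkn1b, Cdkn1c and Tgfbi were not recomputed. limma without the replicate block, which counts more residual degrees of freedom than the values hold, gave 828 genes at an adjusted p under 0.05 and 4138 at an unadjusted p under 0.05, against 0 and 1492 with it. At the unadjusted threshold it gave 11 higher and 3 lower members, and 14 higher and 8 lower other pathway genes. Leaving out 1 pair gave 0 to 24 genes at an adjusted p under 0.05 (3 without pair 2 and 24 without pair 3), 3 to 5 members higher and 0 to 2 lower, 3 to 5 other pathway genes higher and 1 to 2 lower, and a members' median of 0.021 to 0.11. Without the filter 2 members were lower, Bmpr1a being the added one, and 6 higher, Bambi being the added one. Among genes at or above the 50th percentile the members' median was 0.18, over fewer members. With an intensity trend 1 other pathway gene was lower. No member or other pathway gene at an unadjusted p under 0.05 with all pairs changed sign in these alternatives. For the other 33 members, 14 of 275 recomputed values passed the unadjusted threshold with the same sign and 22 changed sign without being called.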

Other observations

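Some members had pair differences as large as the called genes but of opposite sign. Acvr1b had an SD of 1.07 over its 3 pair differences and a mean of -0.04, Inhba an SD of 0.816 and Tgfbr1 of 0.814, beside 0.022 for Smad5. Hamp, the BMP target that encodes hepcidin, lay below the filter with means of 2.97 in control and 2.11 in NPMc+. Of 5 genes of the pathway with more than 1 probe set, both probe sets had the same sign in each: Zfyve9 differed by -0.47 and -0.31, Itgav by 0.26 and 0.22, Ccn2 by -0.26 and -0.18, and Ppm1a by 0.10 and 0.04, whereas the probe sets of Tsc22d1 were far apart at 0.74 and 0.05.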
